A study of Rattus norvegicus with 743 samples.

Results

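The genes described here are 9 nuclear receptor genes of hepatocytes, Nr1i2, Nr1i3, Ppara, Rxra, Esr1, Nr1h4, Nr1h3, Hnf4a and Nr5a2. They were chosen by name, and each matched 1 of the 32893 rows of the deposited Ensembl gene table. They were followed in the livers of rats dosed daily with pharmaceuticals and of rats given only the vehicle, the liquid the compound was dosed in. The series holds 743 RNA-seq libraries of 680 animals, 377 treated and 366 vehicle, from 75 studies, 95 treatments and 18 vehicles. Livers were taken 24 hours after the last dose, and the labels give the strain as Han Wistar or Sprague Dawley. A treated group was set against the vehicle animals that shared its study, batch number and vehicle, which gave 98 comparisons, 53 in Han Wistar and 45 in Sprague Dawley rats, with 2 to 6 animals an arm. Of the 82 vehicle groups used, 15 served more than 1 comparison, so 31 comparisons are not independent of each other.

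The treatments described below were given at these doses for 4 days unless a time is named. Han Wistar males received trovafloxacin, sitaxsentan, alpidem, clarithromycin, flutamide, methimazole, nefazodone, panadiplon or ticlopidine at 600 mg/kg, fluoxetine, zimelidine, ritonavir or a compound labelled Cmpd Z at 400 mg/kg, and TCDD at 0.00015 mg/kg. Han Wistar males also received PCN at 500 mg/kg, phenobarbital at 100 mg/kg and troglitazone at 600 mg/kg, each for 7 days, NB-360 at 750 mg/kg for 5 days, and Han Wistar rats of both sexes received bardoxolone at 10 mg/kg. Sprague Dawley males received atorvastatin, azithromycin, cefuroxime, clofibrate, co-amoxiclav, nabumetone or trimethobenzamide at 600 mg/kg, diclofenac at 50 mg/kg, nitrofurantoin or lapatinib at 500 mg/kg, diphenhydramine, naproxen, lumiracoxib, propranolol or telcagepant at 400 mg/kg, sudoxicam at 100 mg/kg, and phenobarbital at 100 mg/kg for 17 days. Sprague Dawley females received almorexant at 750 mg/kg for 7 days.

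Nuclear receptors are transcription factors, many of which are switched by small fat-soluble molecules. In the liver they sense foreign chemicals (Nr1i2, the pregnane X receptor PXR, and Nr1i3, the constitutive androstane receptor CAR), fatty acids (Ppara), bile acids (Nr1h4, the farnesoid X receptor FXR), oxysterols (Nr1h3, the liver X receptor LXR alpha) and estrogen (Esr1). Rxra encodes the partner that most of them bind DNA with, while Hnf4a and Nr5a2 (LRH-1) hold up the hepatocyte's own programme and its bile acid and cholesterol genes. Much of a receptor's control is at the protein, through its ligand and its place in the cell, so a transcript level is one layer of its state.

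The stretch of 250 bases just before the start of Nr1i2 and Nr1i3 is shown because these xenosensor genes were low together in several treatments, and that of Nr5a2 because it alone among the members holds the AGGTCA half-site that nuclear receptors bind. Sequences are RefSeq's for build GRCr8, 5′ to 3′ on the gene's strand, and capitals mark AGGTCA. Nr1i2 is at chr11:75965467-75965716 (plus strand), Nr1i3 at chr13:86165170-86165419 (plus strand) and Nr5a2 at chr13:50984939-50985188 (minus strand).
Nr1i2: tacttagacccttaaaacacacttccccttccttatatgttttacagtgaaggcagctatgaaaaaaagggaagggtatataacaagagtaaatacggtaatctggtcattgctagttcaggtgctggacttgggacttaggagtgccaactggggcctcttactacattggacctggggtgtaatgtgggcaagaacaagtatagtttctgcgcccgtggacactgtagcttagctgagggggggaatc
Nr1i3: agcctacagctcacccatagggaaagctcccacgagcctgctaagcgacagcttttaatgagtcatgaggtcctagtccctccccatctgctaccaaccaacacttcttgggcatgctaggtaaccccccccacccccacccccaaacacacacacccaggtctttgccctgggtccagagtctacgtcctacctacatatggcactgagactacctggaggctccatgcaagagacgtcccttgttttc
Nr5a2: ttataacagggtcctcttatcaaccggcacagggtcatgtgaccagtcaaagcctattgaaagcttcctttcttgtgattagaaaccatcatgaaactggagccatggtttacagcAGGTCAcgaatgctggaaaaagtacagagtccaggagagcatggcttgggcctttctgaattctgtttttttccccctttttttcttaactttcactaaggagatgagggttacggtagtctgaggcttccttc
The AGGTCA of Nr5a2 lies 134 to 129 bases before the start, on the gene's strand. Searched on both strands, AGGTCA was in 14.1% of 33469 RefSeq promoters of the same length, and the direct repeat of that half-site spaced by 1 base, which overlaps it, in 0.0508% and in no member. Nr1h3 held 1 match to the forkhead-type motif TGTTTAC, on the opposite strand 196 to 190 bases before its start, against 3.21% of promoters. The windows of Rxra and Ppara were 82.8% and 76.0% G or C with 52 and 27 CpG pairs, against a median of 51.2% and 5 over all promoters, while the other members ranged from 44.4% to 59.6%. A match is only a description of these letters. Promoters of 8 of the 9 members were matched by symbol, and that of Nr1h4 was not.

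In vehicle livers 8 of the 9 receptor transcripts were well expressed, and only Esr1 was low. On the FPKM scale, which corrects for gene length and so allows genes to be compared, the median over 83 vehicle groups (322 animals) was 129 for Hnf4a (SD over groups 14.0, range 89.8 to 189). It was 85.3 for Nr1i2 (SD 14.0, range 35.2 to 115), 84.7 for Rxra (SD 23.4, range 13.6 to 138) and 76.9 for Nr1i3 (SD 22.3, range 19.2 to 126). Hnf4a stood above Nr1i2 in 81 of 83 groups, whereas the order of Nr1i2, Rxra and Nr1i3 changed from group to group, Nr1i2 being above Rxra in 37 groups and Rxra above Nr1i3 in 47. The RefSeq gene table placed Rxra second, at a median of 102 against 118 for Hnf4a and 78.5 for Nr1i2, with Hnf4a above Rxra in 66 groups and Rxra above Nr1i2 in 76. Below them came Nr1h3 at 71.9 (SD 9.77), which Nr1i3 exceeded in 51 groups, and then Nr1h4 at 30.8 (SD 4.12), lower than Nr1h3 in all 83. Ppara had a median of 17.0 (SD 8.91) and was below Nr1h4 in 72 groups, but in the RefSeq table both had a median of 29.0 and Nr1h4 was above in 42. Lower still were Nr5a2 at 14.5 (SD 1.71), which Ppara exceeded in 51 groups, and Esr1 at 1.84 (SD 1.49, range 0.612 to 10.1) FPKM. Hepatocyte markers were high, with Alb at a median of 58900 FPKM and Ttr, the thyroxine carrier, at 6290. Transcripts of other cells were there too, such as Clec4f of Kupffer cells at 79.5 and Col1a1 of stellate cells and fibroblasts at 2.96. Among other receptor genes the small heterodimer partner Nr0b2, a repressor induced by FXR, had a median of 56.0 FPKM, while Pgr and Esr2 were at 0.

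**Figure D1:**
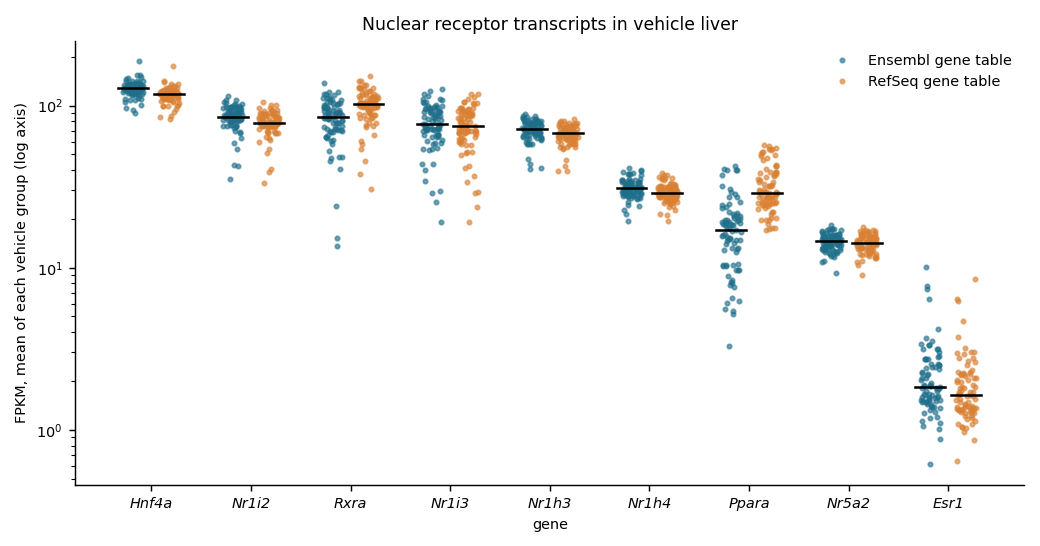
FPKM on a log axis of each of the 9 genes in 83 vehicle groups (a point is the mean of a group's animals), from the Ensembl table in blue and the RefSeq table in orange, with a black bar at the median. Hnf4a is highest at a median of 129 FPKM and Esr1 lowest at 1.84, and Ppara is the gene whose medians differ most as a ratio between the tables, 17.0 against 29.0.

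The steadiest receptors between vehicle groups were Hnf4a, with a coefficient of variation of 10.9%, Nr5a2 with 11.9%, Nr1h4 with 13.2% and Nr1h3 with 13.7%. Ppara varied by 49.9% and Esr1 by 65.2%. In the 2 vehicle groups that held both sexes, of Han Wistar rats, Esr1 was at 13.5, 13.2 and 12.5 FPKM in the females and at 3.61, 5.01 and 4.80 in the males, so the sexes did not overlap there. In the female Sprague Dawley vehicle animals of the almorexant study it was at 2.30, 3.72, 0.542 and 2.87 FPKM, within and below the male range.

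Strain was compared over male vehicle groups of 1 batch number, vehicle and length of dosing (13 Han Wistar and 23 Sprague Dawley groups, limma on mean log2 CPM per group). Of the 9 genes, 4 were lower and 1 higher in Sprague Dawley rats, where 16% of 17114 genes were called higher and 17.7% lower. Nr1h4 was lower by 0.26 on the log2 scale (SE 0.05, adjusted p = 0.000206) and Nr1h3 by 0.22 (SE 0.05, adjusted p = 0.000219). Esr1 differed by -0.42 (SE 0.13, adjusted p = 0.0114), Nr5a2 by -0.15 (SE 0.05, adjusted p = 0.023) and Ppara by 0.54 (SE 0.20, adjusted p = 0.031). Over all male groups with batch number as a covariate the Ppara difference was 0.22 and no longer called, and Hnf4a came to -0.10 (adjusted p = 0.00485). Strain and the studies that used it cannot be told apart.

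Rxra and Ppara need care, because their values depended on the library and the gene table. The RefSeq table holds a median of 9206 Rxra and 4413 Ppara counts a library where the Ensembl table holds 3038 and 580, while the other 7 members were closer, the next in difference being Esr1 with 182 and 144. The 4 vehicle animals of lapatinib were sequenced under batch numbers 1 and 10, with a mean RIN (RNA integrity number) of 8.17 and 6.55. Their Rxra level was 165 CPM (counts scaled to the library total, range 147 to 184) under batch number 1 and 27.0 (23.1 to 32.0) under batch number 10. The RefSeq table gave 491 and 145 CPM. Hnf4a of these animals was at 566 and 410 CPM, and Nr1i2 at 225 and 228. Ppara was at 11.0 and 25.9 CPM in the Ensembl table but at 259 and 274 in the RefSeq table. Across vehicle groups the correlation of log2 CPM with mean RIN was 0.66 for Rxra (0.43 within the 47 groups of batch number 3) and 0.36 for Ppara (0.47), groups that also share batches and studies. Repeat libraries of 1 animal within a batch differed by an SD of 0.03 log2 units for Nr1i3 and Hnf4a and up to 0.13 for Esr1 (40 animals, 84 libraries).

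**Figure D2:**
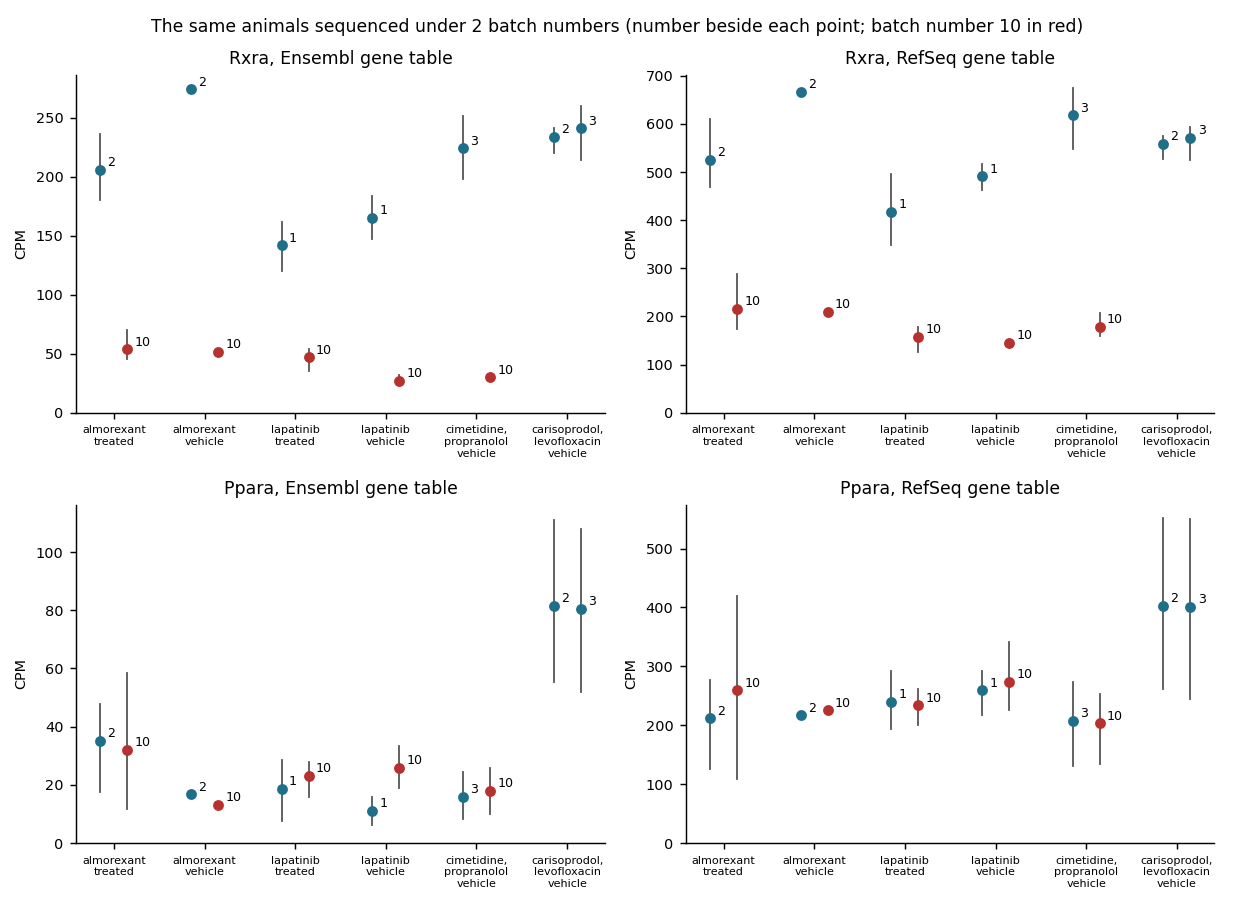
CPM of Rxra (top) and Ppara (bottom) in the Ensembl (left) and RefSeq (right) tables for animals sequenced under 2 batch numbers; points are means over the animals, lines run from the lowest to the highest animal, and red marks batch number 10. Rxra of the lapatinib vehicle animals falls from 165 to 27.0 CPM, and stays close between batch numbers 2 and 3 in the carisoprodol and levofloxacin vehicle animals, at 234 and 241.

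Library totals ranged from 0.313 to 45.55 M counts (M for mega) with a median of 18.2 M counts. The PCN study alone had shallow libraries, of at most 10.0 M counts, while every other library held at least 11.2 M counts. Checked against CAR targets in the phenobarbital studies, 1 library went against its label. In the Han Wistar study, the library labelled vehicle replicate 3 held the CAR target Cyp2b1, a drug-oxidising P450, at 12300 CPM, where the other 4 vehicle animals were at 161, 323, 274 and 237 and the 5 treated animals at 11500 to 14200. Results of that study are therefore given with and without it.

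Across treatments the receptor genes fell far more often than they rose. Over the 882 pairs of gene and comparison, edgeR's quasi-likelihood test called 20 higher (2.27%) and 66 lower (7.48%) at an adjusted p under 0.05. Over all genes tested, 4.92% of pairs were called higher and 4.51% lower. In 65 comparisons no member was called, in 10 a single member, in 14 it was 2 or 3, in 4 it was 4, in 3 it was 5, in 1 it was 6 and in 1 it was 8. Nr1i3 was called lower in 12 comparisons and higher in 2, Nr1i2 lower in 9 and higher in 1, and Nr1h4 lower in 8 and higher in 0. For Nr1h4, 8 comparisons had an unadjusted p under 0.05 in the higher direction, and DESeq2 called 2. Esr1 was called lower in 8 and higher in 2, Rxra lower in 7 and higher in 2, Nr1h3 and Nr5a2 each lower in 6 and higher in 2, and Hnf4a lower in 4 and higher in 1. Ppara alone had more calls higher (8) than lower (6), but the order turned to 3 higher and 9 lower in 1 limma-trend fit of all animals and to 2 and 3 with RIN as a covariate. The share of all genes called, either way, differed widely between the comparisons named below. It was 0.319% with lapatinib under batch number 10, 4.79% with telcagepant, 5.54% with trovafloxacin, 12.1% with alpidem, 12.6% with nitrofurantoin and 13.2% with co-amoxiclav. It was 13.5% with panadiplon, 13.7% with zimelidine, 18.9% with clarithromycin, 19.1% with lumiracoxib, 20.2% with nefazodone and 23.8% with methimazole. It was 28.3% with bardoxolone, 29.1% with sitaxsentan, 35.6% with almorexant, 37.2% with naproxen, 39.2% with Cmpd Z and 41.7% with ritonavir. The share was 10.5% with trimethobenzamide, 13.2% with atorvastatin, 28.3% with diclofenac and 48% with flutamide. Mean RIN was higher in the treated than in the vehicle animals in 72 of the 98 comparisons, and with RIN as a covariate 30 of the 60 named calls were lost. In whole liver RNA, fewer cells of a type and less of a transcript per cell cannot be told apart.

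**Figure D3:**
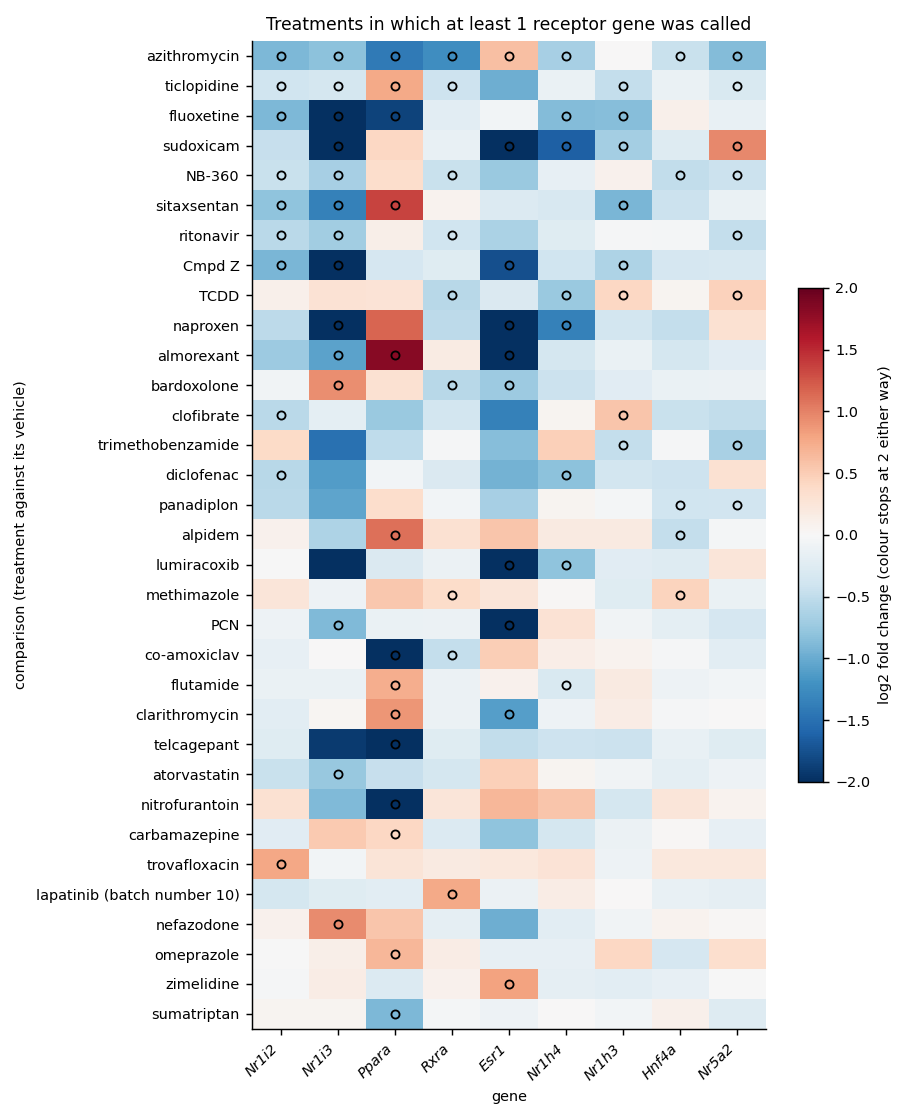
Log2 fold change of the 9 genes (columns) in the 33 comparisons (rows) with at least 1 member called, ordered by the number called; circles mark calls at an adjusted p under 0.05, and colours stop at 2 either way. Azithromycin heads the list with 8 members called, and blue cells, lower in treated animals, fill most circles.

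Nr1i2 (ENSRNOG00000002906) encodes PXR, which induces the Cyp3a genes, and its range of response was narrow, from -0.92 to 0.77 on the log2 scale. Its 1 call higher came with trovafloxacin, a fluoroquinolone. The vehicle animals held 213, 154, 174 and 219 CPM and the treated ones 311, 354, 305 and 322. Every treated animal lay above every vehicle animal, a change of 0.77 on the log2 scale (SE 0.14, adjusted p = 0.0144), although the call was lost without treated replicate 4 (adjusted p = 0.0526) or without vehicle replicate 3 (adjusted p = 0.0505). The largest falls came with Cmpd Z, azithromycin and fluoxetine. With Cmpd Z it went from 198, 184, 211 and 232 to 112, 120.3, 129.7 and 75.7 CPM, a change of -0.92 (SE 0.16, adjusted p = 0.00159). With azithromycin, a macrolide, it went from 187, 306, 324 and 323 to 155, 177, 141 and 138 CPM (-0.90, SE 0.17, adjusted p = 0.00217). With fluoxetine, a serotonin reuptake inhibitor, 4 vehicle animals at 216, 192, 174 and 199.9 CPM stood against 3 treated ones at 111, 136 and 67.7 (-0.90, SE 0.22, adjusted p = 0.0121). The groups did not overlap in any of these 3. For every member, absence of overlap was a condition for a call to be named among its largest rises and falls. It therefore adds no support to those calls, here or below. Of all pairs of gene and comparison called lower, 91.6% were free of overlap. Nr1i2 was also called lower with sitaxsentan (-0.81), diclofenac (-0.56), clofibrate (-0.54), ritonavir (-0.54), NB-360 (-0.45) and ticlopidine (-0.39).

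Nr1i3 (ENSRNOG00000003260) encodes CAR, which induces the Cyp2b genes, and it had the deepest falls of the xenosensors. With fluoxetine the vehicle animals held 105, 104, 106 and 125 CPM and the treated ones 2.37, 29.2 and 8.70. The change was -3.04 on the log2 scale (SE 0.69, adjusted p = 0.0087). With sudoxicam, an anti-inflammatory, 119, 122, 56.5 and 136 CPM became 2.49, 27.3 and 19.1 (-2.73, SE 0.74, adjusted p = 0.0235). With naproxen, of the same drug class, 164, 176, 177 and 90.3 CPM became 12.1 and 37.0 in the 2 treated animals (-2.63, SE 0.53, adjusted p = 0.00983). No treated animal reached the lowest vehicle animal in these 3. Cmpd Z lowered it from a mean of 137 to 26.5 CPM (-2.37, adjusted p = 0.000685) and sitaxsentan, an endothelin receptor antagonist, from 177 to 69.8 (-1.34, adjusted p = 0.0358). Almorexant (-1.07), PCN (-0.89), azithromycin (-0.82), atorvastatin (-0.76), ritonavir (-0.70), NB-360 (-0.66) and ticlopidine (-0.35) made up the rest. In the Cmpd Z animals, in which other members fell too, summed hepatocyte markers went from 221000 to 244000 down to 83300 to 108000 CPM with 6 of 10 called lower, and their part was not tested. Lumiracoxib (-1.999, adjusted p = 0.0544) and diphenhydramine (-1.99, adjusted p = 0.0829) lay further from 0 than most of these and did not pass.

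Neutrophil markers were higher in the 3 comparisons with the deepest falls of Nr1i3. With sudoxicam 4 of the 4 tested neutrophil markers were called higher, their summed level going from 0.769 to 2.74 CPM in vehicle animals to 35.4 to 68.3 in treated ones, and the other 5 of the 9 listed (Mpo, Elane, Camp, Np4 and Ltf) were too low to test. Summed macrophage markers went from 557 to 741 up to 1310 to 1430 CPM, with 9 of 11 tested called higher. Summed hepatocyte markers were at 138000 to 186000 in vehicle and 152000 to 170000 CPM in treated animals, with 5 of 10 called higher and 1 lower. With naproxen the neutrophil sum went from 0.341 to 1.94 up to 33.8 to 62.1, and with fluoxetine from 0.463 to 0.954 up to 5.55 to 30.2. Summed hepatocyte markers went from 140000 to 178000 down to 124000 to 134000 CPM with naproxen and from 183000 to 214000 down to 130000 to 162000 with fluoxetine. Single markers were mixed, 4 of 10 called higher and 2 lower with naproxen, and 4 of 10 higher and 3 lower with fluoxetine. The part of these cells in the result was not tested. The RIN of the vehicle animals was also lower in the sudoxicam study, 7.40 against 8.10, and with RIN as a covariate the sudoxicam call was lost (adjusted p = 0.0632), as it was without treated replicate 3 (0.058) or without vehicle replicate 1 (0.0502) or 2 (0.0507).

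The 2 rises of Nr1i3 came with nefazodone and bardoxolone. Nefazodone, an antidepressant, took it from 76.8, 112, 60.1 and 51.9 to 152, 143, 123 and 160.4 CPM, a change of 0.95 on the log2 scale (SE 0.22, adjusted p = 0.0176). Bardoxolone, an activator of the stress response factor NRF2, took it from 37.4, 57.8 and 55.6 to 117, 106 and 67.0 CPM (0.93, SE 0.09, adjusted p = 0.000454), fitted with sex as a covariate. Groups did not overlap in either, but mean RIN was 8.80 in the bardoxolone animals and 7.50 in their vehicle animals, 8.88 and 8.48 in the nefazodone study, and with RIN as a covariate neither passed (adjusted p = 0.288 for bardoxolone and 0.943 for nefazodone). Without treated replicate 4 the nefazodone value was 0.90 (adjusted p = 0.0507). Nr1i2 and Nr1i3 were both called lower in 7 comparisons, 7 of the 9 with Nr1i2 lower and 7 of the 12 with Nr1i3 lower. These were Cmpd Z, NB-360, azithromycin, fluoxetine, ritonavir, sitaxsentan and ticlopidine. In these 7 comparisons 26.6% (NB-360) to 49.2% (ticlopidine) of all genes were called, either way. Both ticlopidine calls and the azithromycin call of Nr1i3 were each lost without 1 of several animals. Over 82 comparisons, 1 for each vehicle group, the log2 fold changes of Nr1i2 and Nr1i3 had a Pearson r of 0.55 (0.47 within the 47 of batch number 3), given as a description of genes measured in the same libraries.

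**Figure D4:**
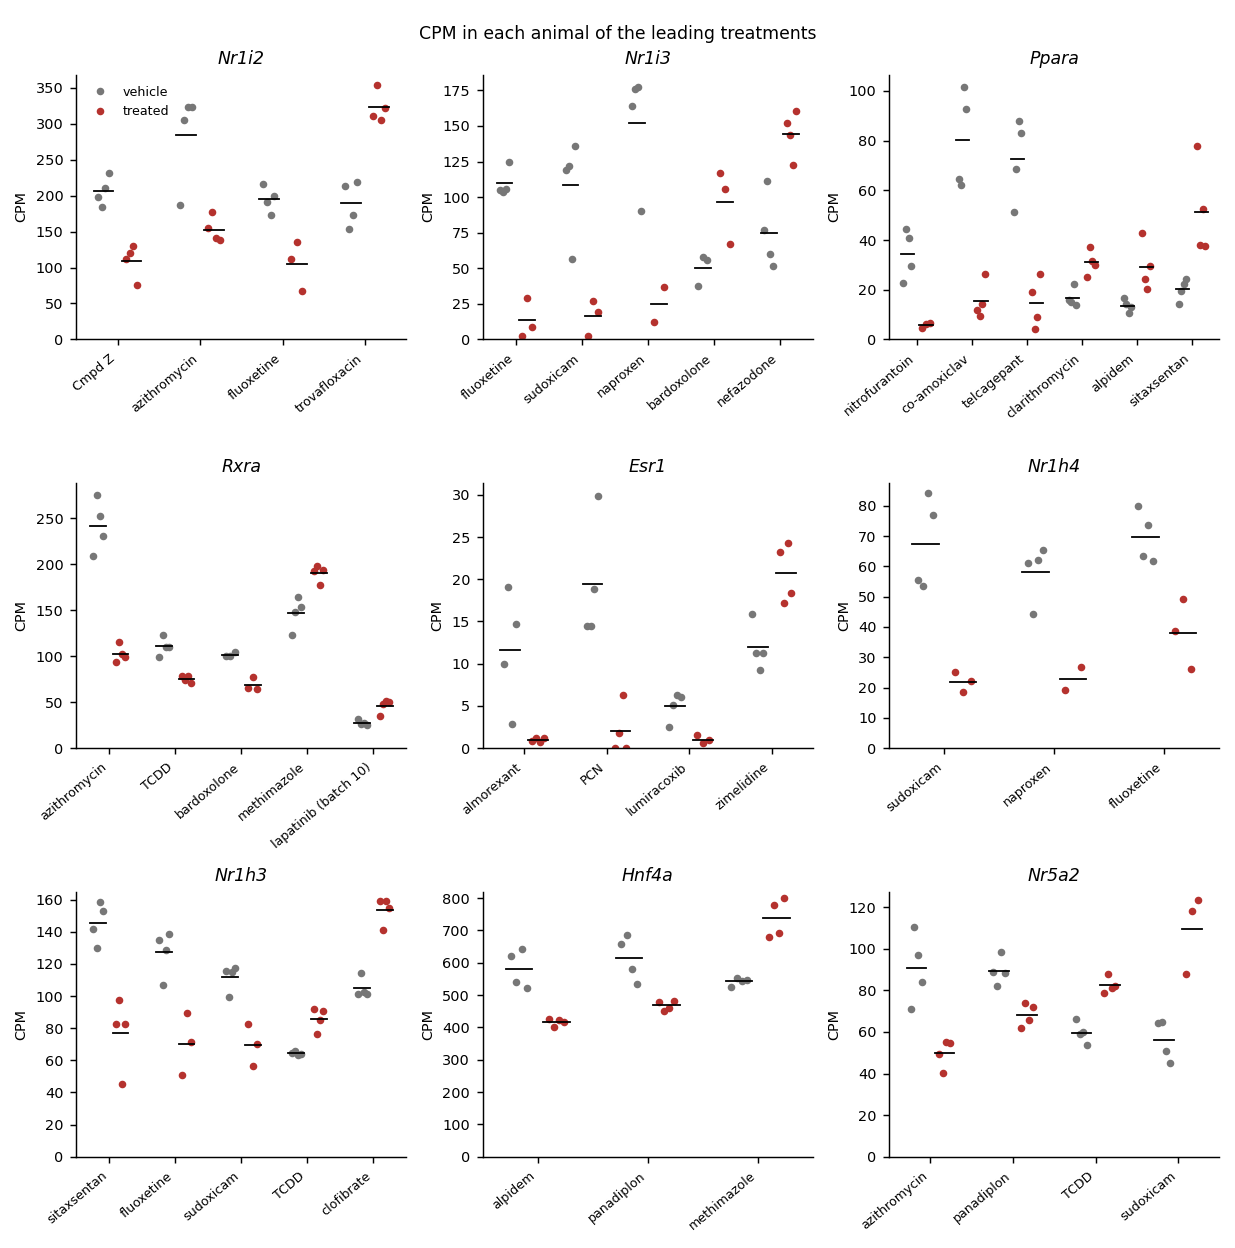
CPM of each animal (points; grey for vehicle, red for treated, bars at the mean, axes from 0) in the treatments with the largest falls and rises of each of the 9 genes. Nr1i3 falls to between 2.37 and 29.2 CPM in the fluoxetine animals, against 104 to 125 in their vehicle animals.

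Ppara (ENSRNOG00000021463) encodes the fatty acid sensor that induces peroxisomal and mitochondrial fat oxidation. Its largest fall in the Ensembl table came with nitrofurantoin, an antibacterial, where 22.6, 44.6, 40.8 and 29.5 CPM became 4.74, 6.34 and 6.60. The log2 fold change was -2.54 (SE 0.27, adjusted p = 0.00239), and -1.81 in the RefSeq table (adjusted p = 0.00469). With co-amoxiclav 64.5, 62.0, 102 and 92.9 CPM became 11.8, 9.23, 14.3 and 26.2 (-2.38, SE 0.34, adjusted p = 0.00506, and -1.07 in RefSeq, adjusted p = 0.0149). With telcagepant, a CGRP receptor antagonist, 51.4, 68.7, 87.7 and 82.9 CPM became 19.1, 4.15, 9.04 and 26.5 (-2.31, SE 0.51, adjusted p = 0.0393). In the RefSeq table telcagepant gave the largest fall of Ppara, -2.45 (adjusted p = 0.0372). All treated animals of the 3 lay below their vehicle animals, and both tables gave the same direction. The telcagepant call was lost without treated replicate 3 (adjusted p = 0.0628), without any 1 of the vehicle animals (adjusted p from 0.0722 to 0.119) or with RIN as a covariate. That covariate also lost the co-amoxiclav call (adjusted p = 0.401), while the nitrofurantoin call held. Fluoxetine lowered Ppara from a mean of 49.6 to 13.7 CPM (-1.86, adjusted p = 0.00164, -1.89 in RefSeq), a call lost with RIN as a covariate (adjusted p = 0.0743).

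The named rises of Ppara were smaller in the RefSeq table, which holds more Ppara counts. With sitaxsentan 14.4, 19.4, 22.4 and 24.3 CPM became 77.7, 37.9, 52.5 and 37.4, without overlap (1.35, SE 0.26, adjusted p = 0.00763). The RefSeq value was 0.73 and did not pass (adjusted p = 0.077), and mean RIN was 7.39 in the vehicle and 8.45 in the treated animals. Alpidem, an anxiolytic, gave 16.6, 14.1, 10.6 and 13.2 against 42.8, 24.4, 20.2 and 29.5 CPM (1.11, SE 0.23, adjusted p = 0.0183, and 0.60 in RefSeq, adjusted p = 0.0469), a call lost without treated replicate 4 (adjusted p = 0.0524). Clarithromycin gave 16.1, 15.2, 22.3 and 13.8 against 24.9, 37.3, 31.6 and 30.0 CPM (0.88, SE 0.17, adjusted p = 0.00703), again without overlap, but 0.28 in RefSeq (adjusted p = 0.13). With ticlopidine, an antiplatelet drug, Ppara rose in both tables, by 0.75 (adjusted p = 4.86e-05) and 0.55 (adjusted p = 0.00055). In 1 limma-trend fit of all animals the ticlopidine rise did not pass (adjusted p = 0.0957). The sitaxsentan and alpidem rises did not pass with RIN as a covariate (adjusted p = 0.257 and 0.486). Over 82 comparisons the log2 fold change of Ppara had a correlation of 0.30 with the difference in mean RIN between arms (0.38 within batch number 3), and the part of RNA quality was not tested.

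Rxra (ENSRNOG00000009446) encodes the common partner. It fell most with azithromycin, from 209, 276, 253 and 231 to 93.6, 116, 102 and 99.6 CPM, with no overlap. The change was -1.24 (SE 0.11, adjusted p = 2e-05) and -1.19 in the RefSeq table (adjusted p = 1.76e-05). In the Ensembl table this was the lowest adjusted p of the 882 pairs. Here RIN was alike in both arms, 8.40 and 8.53. TCDD, an activator of the aryl hydrocarbon receptor, took it from 99.1, 123, 110.2 and 110.5 to 78.1, 73.7, 78.1 and 70.5 CPM (-0.56, SE 0.08, adjusted p = 0.00118). Bardoxolone took it from 101, 100.2 and 104 to 65.5, 77.2 and 64.6 (-0.56, SE 0.10, adjusted p = 0.00499). Both fell with no overlap and by like amounts in RefSeq, -0.54 and -0.51, though mean RIN was 9.20 in TCDD and 7.88 in its vehicle animals, and with RIN as a covariate neither passed (adjusted p = 0.436 for TCDD and 0.489 for bardoxolone). Methimazole, which blocks thyroid hormone synthesis, raised it from 123, 148, 164 and 154 to 192, 198, 178 and 194 CPM (0.37, SE 0.10, adjusted p = 0.027), a call lost without treated replicate 2 (adjusted p = 0.0683) or without vehicle replicate 1 (0.068) or 2 (0.0506).

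Lapatinib, a kinase inhibitor, was measured under 2 batch numbers, and Rxra differed between them. Under batch number 10 the vehicle animals were at 32.1, 25.8, 26.8 and 25.04 and the treated ones at 35.3, 48.5, 51.5 and 50.1 CPM, called higher (0.76, SE 0.13, adjusted p = 0.0425) with mean RIN of 6.55 and 7.55. Under batch number 1 libraries of the same animals gave -0.24 (adjusted p = 0.586), and the batch number 10 libraries gave 0.10 in the RefSeq table (adjusted p = 0.696). Under batch number 10 the call was lost without any 1 of treated replicates 2, 3 and 4 or vehicle replicates 2, 3 and 4, with adjusted p from 0.0757 to 0.12.

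Esr1 (ENSRNOG00000019358), the estrogen receptor alpha gene, is a low transcript with wide swings, and 18 of 98 comparisons lay below -1 on the log2 scale. In almorexant females, given an orexin receptor antagonist, 10.0, 19.1, 2.84 and 14.7 CPM became 0.828, 1.22, 0.690 and 1.22. The groups did not overlap (-3.56, SE 0.55, adjusted p = 0.00201). Markers of several cell types were lower in these animals. Summed hepatocyte markers went from 125000 to 200000 down to 64000 to 126000 CPM (3 of 10 called lower, 1 higher), macrophage markers from 602 to 857 down to 105 to 248 (10 of 11 lower) and endothelial markers from 182 to 271 down to 55.4 to 128 (7 of 8 lower). Stellate and fibroblast markers went from 361 to 476 down to 80.9 to 232 (4 of 9 lower) and erythroid markers from 463 to 1090 down to 27.1 to 108 (5 of 5 lower), and the part of these cells was not tested. With lumiracoxib, an anti-inflammatory, 2.54, 5.06, 6.29 and 6.07 CPM became 1.52, 0.563 and 0.919 (-2.31, SE 0.43, adjusted p = 0.0108), while the neutrophil sum went from 0.289 to 1.94 up to 29.1 to 79.7. Sudoxicam (-2.22), naproxen (-2.14), Cmpd Z (-1.75), clarithromycin (-1.10) and bardoxolone (-0.73) also lowered it. Zimelidine, a serotonin reuptake inhibitor, raised it from 15.9, 11.3, 9.25 and 11.3 to 23.2, 17.2, 24.3 and 18.4 CPM (0.80, SE 0.17, adjusted p = 0.0168), without overlap. The zimelidine call was lost with RIN as a covariate (adjusted p = 0.585) and in 1 limma-trend fit of all animals (0.411). RIN as a covariate lost the lumiracoxib call too (adjusted p = 0.0587).

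Nr1h4 (ENSRNOG00000007197) encodes FXR, which lowers bile acid synthesis and raises bile acid export. Its deepest falls were with sudoxicam and naproxen, both anti-inflammatory drugs, and then fluoxetine. With sudoxicam 55.5, 53.4, 84.2 and 77.0 CPM became 25, 18.5 and 22.0 (-1.63, SE 0.21, adjusted p = 0.000814). With naproxen 61.2, 44.4, 62.0 and 65.4 CPM became 19.1 and 26.6 (-1.35, SE 0.21, adjusted p = 0.00188). With fluoxetine 80.1, 63.5, 73.7 and 61.6 CPM became 38.7, 49.2 and 26.2 (-0.87, SE 0.21, adjusted p = 0.01). Diclofenac (-0.82) and lumiracoxib (-0.81), anti-inflammatory drugs as well, were called too, whereas nabumetone, another of that class, was at -0.09 and did not pass (adjusted p = 0.824). That comparison turned on treated replicate 1, and without it Nr1h4 was at -0.34 and still did not pass (adjusted p = 0.122). All 8 calls lower of Nr1h4 had every treated animal below every vehicle animal, which is near the background, since 91.6% of all pairs of gene and comparison called lower were free of overlap. TCDD (-0.75), azithromycin (-0.66) and flutamide (-0.30) complete the 8. The fluoxetine and TCDD calls were lost with RIN as a covariate (adjusted p = 0.0755 and 0.248). The marker sums given for Nr1i3 belong to the same sudoxicam, naproxen and fluoxetine animals.

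Nr1h3 (ENSRNOG00000013172), the LXR alpha gene, drives cholesterol export and fat synthesis genes. Clofibrate, a PPAR alpha agonist, raised it from 101, 114, 103 and 101 to 159, 141, 159 and 155 CPM (0.55, SE 0.09, adjusted p = 0.0055). TCDD raised it from 64.5, 66.1, 63.6 and 64.1 to 91.7, 76.2, 85.3 and 90.9 CPM (0.41, SE 0.08, adjusted p = 0.0043). Each rise was free of overlap. With sitaxsentan 142, 129.7, 159 and 153 CPM became 82.6, 97.4, 45.3 and 82.7 (-0.92, SE 0.22, adjusted p = 0.0147). With fluoxetine 135, 107, 129 and 139 became 50.9, 89.2 and 71.3 (-0.86, SE 0.19, adjusted p = 0.00806), and with sudoxicam 115, 99.2, 115 and 117 became 82.6, 56.3 and 70.2 (-0.68, SE 0.17, adjusted p = 0.0138). None of these overlapped, and Cmpd Z (-0.61), trimethobenzamide (-0.48) and ticlopidine (-0.47) were also lower. The TCDD, sitaxsentan and sudoxicam calls were lost with RIN as a covariate (adjusted p = 0.284, 0.339 and 0.086).

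Hnf4a (ENSRNOG00000008895), a factor that hepatocytes need for apolipoprotein and clotting factor genes, had the narrowest range, from -0.49 to 0.44, although its median size of change, 0.16, was above those of Nr1h3 (0.13), Nr5a2 (0.14) and Rxra (0.15). Methimazole raised it from 525.7, 553, 545 and 548 to 681, 780.0, 693 and 799.6 CPM (0.44, SE 0.10, adjusted p = 0.00979). Alpidem lowered it from 622, 542, 642 and 521 to 427, 402, 422 and 416 CPM (-0.48, SE 0.11, adjusted p = 0.0191). Panadiplon, another anxiolytic, lowered it from 659.6, 686, 582 and 533 to 479, 451, 461 and 482 CPM (-0.39, SE 0.11, adjusted p = 0.0375). Groups were apart in all 3. The alpidem call was lost without treated replicate 4 (adjusted p = 0.0533) or without vehicle replicate 3 (0.0549), and the panadiplon call without any 1 animal other than treated replicate 1 and vehicle replicate 4 (adjusted p from 0.0501 to 0.103). NB-360 (-0.49) and azithromycin (-0.44) were called lower with overlapping animals. The alpidem, panadiplon and NB-360 calls were lost with RIN as a covariate (adjusted p = 0.238, 0.284 and 0.631).

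Nr5a2 (ENSRNOG00000000653), the LRH-1 gene, rose with 2 treatments and fell with 6. Sudoxicam took it from 64.1, 64.8, 50.7 and 45.03 to 87.6, 118 and 123 CPM (0.97, SE 0.19, adjusted p = 0.0054), the opposite direction to Nr1h4 in the same animals. TCDD took it from 66.1, 59.1, 59.9 and 53.7 to 78.8, 87.8, 81.2 and 82.2 CPM (0.47, SE 0.08, adjusted p = 0.00277). Azithromycin lowered it from 71.3, 110.3, 97.2 and 83.8 to 49.2, 40.3, 55.1 and 54.7 CPM (-0.86, SE 0.15, adjusted p = 0.00102). No treated animal overlapped the vehicle range in these. The TCDD call was lost with RIN as a covariate (adjusted p = 0.416). Panadiplon took it from 88.7, 82.2, 98.5 and 88.5 to 61.6, 74.0, 65.5 and 72.2 CPM (-0.39, SE 0.09, adjusted p = 0.0224), a call lost without vehicle replicate 1 (0.0573) or 3 (0.0658). Trimethobenzamide (-0.66), ritonavir (-0.48), NB-360 (-0.43) and ticlopidine (-0.31) were also called lower, with overlapping animals. Of the 6 calls lower of Nr5a2, 2 were free of overlap, where 91.6% of all pairs called lower were. The NB-360 call was lost without treated replicate 3 (adjusted p = 0.0531) or without vehicle replicate 3 (0.0513) or 4 (0.0529).

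Azithromycin moved 8 of the 9 genes, 7 lower and only Esr1 higher, where 47.1% of all genes were called. Their median log2 fold change was -0.82 against 0.02 for all genes. Beside the falls already given, Nr1i3 went from 126, 274, 247 and 169.9 to 151, 110.5, 91.9 and 111 CPM (-0.82, adjusted p = 0.026), with overlap, a call lost without treated replicate 2, 3 or 4 or vehicle replicate 2 or 3 (adjusted p from 0.0568 to 0.0653). Ppara went from 24.2, 55.9, 83.4 and 59.9 to 25.4, 23.8, 14.3 and 20.0 (-1.42, adjusted p = 0.0122), also overlapping. Nr1h3 was the member not called, at 0.003 (adjusted p = 0.978). Esr1 went up from 9.18, 10.1, 11.0 and 11.5 to 11.1, 15.6, 17.1 and 19.8 CPM (0.61, adjusted p = 0.0137), with overlap. The Esr1 call was lost in 1 limma-trend fit of all animals (adjusted p = 0.433). Of 27 other nuclear receptor genes tested, 13 were lower and 0 higher, led by Nr0b2 (-3.20, from 154 to 16.8 CPM) and the clock gene Nr1d1 (-2.32). Of 12 liver transcription factor genes 6 were lower, among them Foxa1 (-1.53) and Cebpa (-1.01), and of 17 HNF4A targets 12 were lower and 1 higher, with the gluconeogenic Pck1 at -2.43. FXR targets were lower in 5 of 6, with the bile salt export pump Abcb11 at -1.07. Summed hepatocyte markers went from 204000 to 236000 CPM down to 97900 to 102000, with 8 of 10 called lower, endothelial markers from 271 to 288 down to 52.5 to 124 with 7 of 8 lower, and macrophage markers from 639 to 736 to 587 to 1060. Their part in the result was not tested.

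Ticlopidine moved 6 of the 9 genes where 49.2% of all genes were called, Ppara up and 5 down. Ppara rose from 49.0, 42.0, 44.9 and 46.4 to 76.9, 72.0, 86.3 and 72.0 CPM. Rxra fell from 224, 206, 198 and 224 to 161, 148, 169 and 159.7 (-0.42, adjusted p = 0.001), and Nr1h3 from 121, 138, 120.4 and 142 to 98.7, 89.7, 106 and 82.0 CPM. These 3 were without overlap, whereas Nr1i2, Nr1i3 and Nr5a2 overlapped and were each lost without 1 of several animals (adjusted p up to 0.0797, 0.121 and 0.0826). In 1 limma-trend fit of all animals only the Nr1h3 call held. There the adjusted p was 0.0957 for Ppara, 0.142 for Rxra, 0.162 for Nr1i2, 0.619 for Nr1i3 and 0.21 for Nr5a2. RIN as a covariate lost the Nr1i2 (0.057) and Nr1i3 (0.234) calls. Esr1 (-0.975, adjusted p = 0.0702), Nr1h4 (-0.13) and Hnf4a (-0.13) did not pass. CAR targets were called higher in 6 of 7 with a median of 3.43, Cyp2b2 going from 113 to 6800 CPM, although Nr1i3 itself was lower by 0.35. PPAR alpha targets went the other way from Ppara, 11 of 19 lower and 2 higher, with Cyp4a1 at -2.32. LXR targets were lower in 8 of 11. Hepatocyte markers were lower in 8 of 10 and macrophage markers in 11 of 11, at summed levels of 593 to 687 CPM in vehicle and 257 to 378 in treated animals, and their part was not tested.

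Fluoxetine, sudoxicam and NB-360 each moved 5 of the 9. With fluoxetine, where 47.1% of genes were called, all 5 were lower, and 17 of 19 PPAR alpha targets were lower with a median of -1.76, Ehhadh of the peroxisome going from 1450 to 85.1 CPM. Nr0b2 fell by 3.40 on the log2 scale and Hnf4g, a relative of Hnf4a, by 2.38, while Hnf4a itself was at 0.11 (adjusted p = 0.623). Rxra (-0.21), Nr5a2 (-0.15) and Esr1 (-0.05) did not pass either. With sudoxicam, where 36.5% of genes were called, 4 were lower and Nr5a2 higher, and 6 of 7 PXR targets were lower (Cyp3a23/3a1 from 3430 to 774 CPM). Nr1i2 was at -0.46 there and did not pass (adjusted p = 0.0751), nor did Ppara (0.41), Hnf4a (-0.26) or Rxra (-0.145). Of the 6 FXR targets tested, 3 were lower, such as Nr0b2 (-3.78), and 2 higher, Kng1 (5.44) and Fgg (2.93), which encode the plasma proteins kininogen and a fibrinogen chain. NB-360, where 26.6% of genes were called, lowered 5 of the 9 while 6 of 7 PXR targets and 5 of 7 CAR targets were higher, Cyp3a23/3a1 going from 3380 to 36100 CPM. Nr1i2 went there from 189, 189.8, 184 and 186 to 149, 138, 143 and 119.6 CPM (-0.45, adjusted p = 0.00397) and Nr1i3 from 141, 155, 123 and 101 to 83.7, 84.6, 86.3 and 73.9 (-0.66, adjusted p = 0.00281). The xenosensor transcripts were lower in the animals whose target genes were higher, with no overlap between groups. Rxra went from 149.9, 149.7, 149.8 and 157.7 to 106.0, 112.9, 110.5 and 117.2 CPM (-0.44, adjusted p = 0.00197), also without overlap, and Hnf4a and Nr5a2 were the others called. None of the 5 NB-360 calls held with RIN as a covariate (adjusted p = 0.311 for Nr1i2, 0.307 for Nr1i3, 0.162 for Rxra, 0.631 for Hnf4a and 0.648 for Nr5a2). In 1 limma-trend fit of all animals Nr1i2 (0.0671), Nr1i3 (0.244) and Rxra (0.087) did not pass. Ppara (0.35), Nr1h3 (0.08), Nr1h4 (-0.17) and Esr1 (-0.735) did not pass. Hepatocyte markers were lower in 8 of 10 with NB-360, summing to 190000 to 212000 CPM in vehicle and 99900 to 113000 in treated animals, and HNF4A targets were lower in 11 of 17 and higher in 2. Macrophage markers were lower in 11 of 11, summing to 564 to 773 and 219 to 350 CPM, and the part of these cells was not tested.

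The study also held compounds known as activators of these receptors, and with PCN, phenobarbital and clofibrate the gene of the receptor concerned was not called higher. PCN, which the labels do not spell out and which is the usual name of a rodent PXR activator, left Nr1i2 at 119, 148, 138 and 149 CPM against 122, 129, 178 and 161 in vehicle animals (-0.10, SE 0.15, adjusted p = 0.842). All 7 PXR targets tested were called higher, with a median of 2.46 and Cyp3a23/3a1 going from 1680 to 39900 CPM, where 6.13% of all genes were called. Of the members 2 were called, both lower. Nr1i3 went from 103, 110.4, 92.0 and 125 to 41.8, 63.5, 73.7 and 49.6 CPM (-0.89, SE 0.17, adjusted p = 0.00221), without overlap. Esr1 went from 14.4, 14.5, 18.9 and 29.9 to 0, 1.79, 6.25 and 0 CPM (-2.78, SE 0.57, adjusted p = 0.0107). These libraries held 0.313 to 1.74 M counts, so a count of 0 allows up to 2.17 CPM in treated replicate 1 and 9.57 in replicate 4, for counting error only. The Esr1 call was lost without treated replicate 2 (-2.62, adjusted p = 0.0552), and was -4.61 without treated replicate 3. The other members did not pass, at -0.335 for Nr5a2, -0.20 for Hnf4a, -0.13 for Ppara, -0.12 for Rxra, -0.06 for Nr1h3 and 0.29 for Nr1h4 (adjusted p from 0.266 to 0.92).

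Phenobarbital, the classic indirect activator of CAR, did not raise Nr1i3 in either strain. In Han Wistar rats Nr1i3 was at 114, 87.3, 72.5, 164 and 99.5 CPM in vehicle and 73.4, 53.6, 58.1, 62.1 and 60.0 in treated animals. With all animals edgeR called 0% of genes (0 of 12640, with 2468 at an unadjusted p under 0.05 and 647 called by DESeq2), and Nr1i3 was at -0.80 (SE 0.19, adjusted p = 0.117, in DESeq2 0.00469). Without vehicle replicate 3, the library with Cyp2b1 at 12300 CPM, 16.4% of genes were called and 2 members with them. Nr1i3 was then at -0.91 (SE 0.16, adjusted p = 0.00362) and Nr1i2 at -0.52 (SE 0.14, adjusted p = 0.0245), and 6 of 7 CAR targets were higher, Cyp2b1 by 5.62. That library was set apart by its level of a CAR target, so the rise of these targets without it follows from the choice and adds no support. The other members did not pass without it, with Esr1 at -1.15 (adjusted p = 0.099), Nr5a2 at -0.11, Nr1h4 at 0.01, Nr1h3 at 0.03, Hnf4a at 0.06, Ppara at 0.29 and Rxra at 0.30, nor did any with all animals. That library held the lowest Nr1i3 level of the vehicle animals, 72.5 CPM. Counted without it, Nr1i2 was lower in 10 comparisons, Nr1i3 in 13 and both in 8. In Sprague Dawley rats, with 3 vehicle and 2 treated animals, Nr1i3 was at 51.0, 19.9 and 55.2 against 30.9 and 23.9 CPM (-0.62, SE 0.48, adjusted p = 0.562), overlapping. There 1.23% of genes were called, and 4 of 7 CAR targets were higher, with Cyp2b1 going from 5.30 to 8230 CPM. No member passed there, with Nr1i2 at -0.62 (adjusted p = 0.109), Rxra at -0.59 (adjusted p = 0.0959), Hnf4a at -0.41, Nr5a2 at -0.39, Esr1 at -0.34, Nr1h3 at 0.01, Nr1h4 at 0.41 and Ppara at 0.45.

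Clofibrate raised 10 of 19 PPAR alpha targets (median 0.92, Ehhadh from 772 to 16500 CPM) where 15% of genes were called, and Ppara itself was at 83.3, 47.7, 75.7 and 18.4 CPM in vehicle and 27.9, 36.9, 26.8 and 43.5 in treated animals. The groups overlapped (-0.74, SE 0.43, adjusted p = 0.271). Of the members 2 were called, Nr1h3 higher and Nr1i2 lower, the latter from 287, 213, 228 and 216 to 131, 146, 188 and 187 CPM (-0.54, adjusted p = 0.043). The Nr1i2 call held without treated replicate 3 but was lost without any other single animal (adjusted p from 0.0546 to 0.114). Not called were Esr1 (-1.35, adjusted p = 0.105), Nr5a2 (-0.49), Hnf4a (-0.44), Rxra (-0.36), Nr1i3 (-0.19) and Nr1h4 (0.05). Beside the rise of Nr1h3, 4 of 11 LXR targets were higher and 2 lower, with the desaturase Scd at 4.44 and the lipid regulator Srebf1 at 2.76. TCDD moved 4 of the 9 where 20.9% of genes were called, Nr1h3 and Nr5a2 up, Rxra and Nr1h4 down. None of these 4 calls held with RIN as a covariate (adjusted p from 0.248 for Nr1h4 to 0.436 for Rxra). Nr1h4 went from 52.4, 51.6, 73.7 and 68.9 to 39.9, 33.7, 39.3 and 33.9 CPM (-0.75, SE 0.13, adjusted p = 0.00257), with no overlap. Esr1 (-0.295), Hnf4a (0.05), Nr1i2 (0.11), Ppara (0.27, adjusted p = 0.061) and Nr1i3 (0.28) did not pass. Of 27 other receptor genes 9 were lower and 1 higher, with Hnf4g at -1.28. Troglitazone, a PPAR gamma agonist, gave 0% of genes called by edgeR (0 of 12638, with 1333 at an unadjusted p under 0.05 and 65 called by DESeq2), with Ppara at -0.13 (adjusted p = 0.782). The other members lay between -0.23 for Esr1 and 0.07 for Hnf4a, with Nr1i3 at -0.146, Nr1h4 at -0.14, Rxra at -0.12, Nr5a2 at -0.06, Nr1h3 at -0.03 and Nr1i2 at 0.04.

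**Figure D5:**
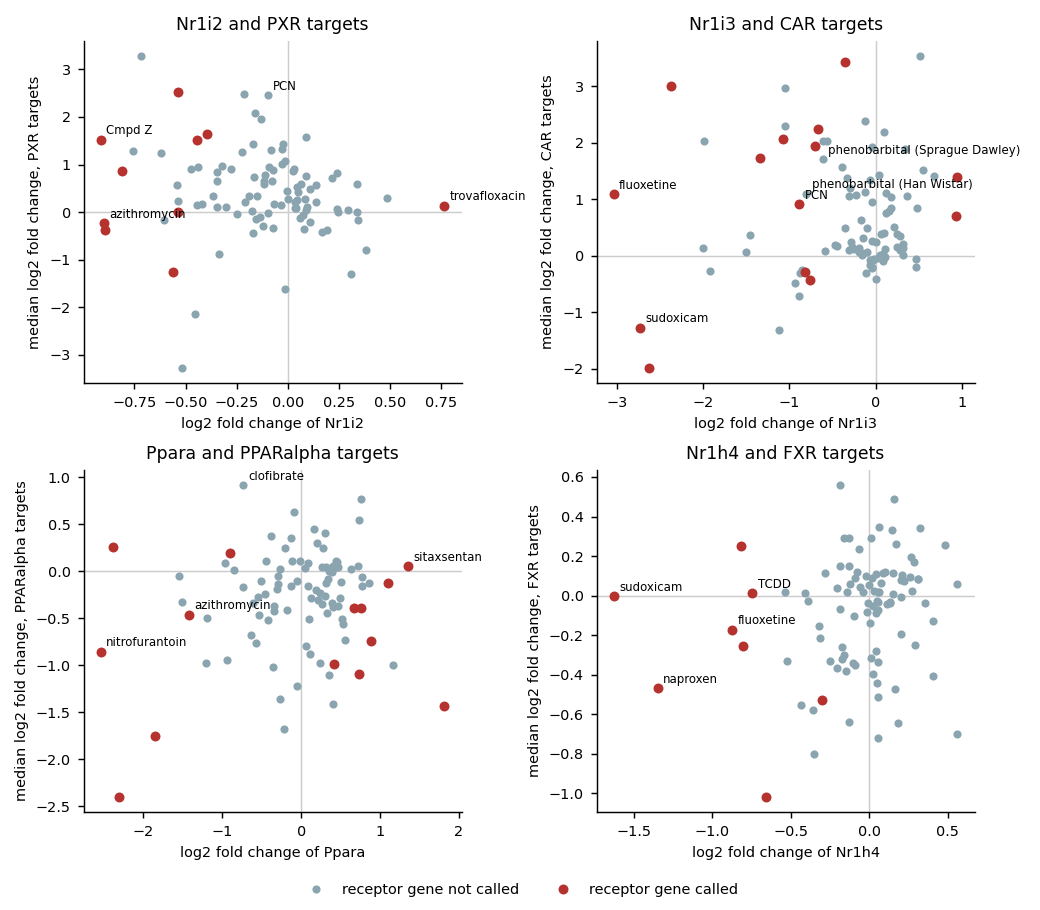
Log2 fold change of 4 receptor genes (x) against the median log2 fold change of their target genes (y) in all 98 comparisons; red points are comparisons in which the receptor gene was called. PCN sits at -0.10 for Nr1i2 and 2.46 for its targets, and fluoxetine at -1.86 for Ppara and -1.76 for its targets.

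Over the 82 comparisons taken 1 for each vehicle group, a receptor's transcript and the median of its targets were only loosely related. The Pearson r was -0.19 for Nr1i2 and PXR targets, 0.04 for Nr1i3 and CAR targets, 0.14 for Ppara, 0.23 for Nr1h4, 0.11 for Nr1h3, 0.30 for Hnf4a and 0.01 for Nr5a2, a description over comparisons whose genes share libraries. The highest median of PXR targets, 3.27 with almorexant, came with Nr1i2 at -0.72 (adjusted p = 0.0807), and the lowest, -3.27 with naproxen, with Nr1i2 at -0.52 (adjusted p = 0.0975). CAR targets had a median of 3.00 with Cmpd Z, where Nr1i3 was at -2.37. The lowest median of PPAR alpha targets, -2.40 with telcagepant, did come with a low Ppara.

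The genes whose log2 fold changes most resembled those of each member were found over the same 82 comparisons and 6778 genes. Nr1i3 was most like Pcp4l1 (r = 0.79), Glyat (0.78) and Rab29 (0.78), and Nr1i2 like Il6r (0.72), Cyp4b1 (0.72) and Apoc2 (0.69). Nr1h3 was most like Grcc10 (0.75), Galt (0.71) and Anks4b (0.69), Nr1h4 like Aldh2 (0.74), Cars2 (0.73) and Cyp2d2 (0.73), and Ppara like Pdpr (0.73), Strn (0.71) and Lpin2 (0.71). Esr1 was most like the prolactin receptor gene Prlr (0.71), Sdc1 (0.68) and Enpp1 (0.68), and Nr5a2 like Tdo2 (0.71), Rsbn1 (0.66) and Akap10 (0.65). Rxra was most like Furin (0.66), Tns1 (0.64) and Wbp1l (0.64), and Hnf4a, with the weakest likeness, like Kctd6 (0.61), Heatr3 (0.56) and Taf12 (0.52).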

How the data were processed

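Liver RNA of 680 rats was measured in 743 libraries. Per the labels' protocols, RNA was extracted on a MagMAX magnetic particle processor and libraries were made with the TruSeq Stranded mRNA kit. The authors deposited expected counts per gene and FPKM per gene in an Ensembl table of 32893 rows and a RefSeq table of 34335 rows, on build Rnor_6.0, per the submitters' processing notes. What aligned and counted the reads is not given in the sources used here. The deposited expected counts were rounded to whole numbers for the count tests, and the deposited FPKM values were used as they stand for levels in vehicle animals. Of the columns of the count tables, 0 were left unused.

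Treated groups were tested against the vehicle animals that shared their study, batch number and vehicle with edgeR 4.0.16 in R 4.3.3 (filterByExpr, TMM factors, quasi-likelihood F test, Benjamini-Hochberg adjustment over all genes tested, called at an adjusted p under 0.05). CPM in the comparisons are scaled by TMM, and those of repeat libraries by library sum. The SE is the size of the log2 fold change over the square root of F. Sex was a covariate in the bardoxolone and pyrazole comparisons. Metformin was dosed for 3 days and its vehicle for 4. Repeat libraries of an animal within a batch number were summed into 1 sample. The row of the whole Ugt1a locus, which repeats its transcripts' rows, was dropped. The almorexant libraries under batch number 2, with 1 vehicle animal, were not tested. Strains were compared with limma 3.58.1. Groups hold separate animals, so p-values measure the spread between animals of 1 study.

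The members and gene lists were chosen with earlier results of these data known. The text names, for each member, the 3 largest rises and falls among calls with all treated animals on 1 side of all vehicle animals and a mean of at least 1 CPM in the higher group. It also names all members in the PCN, phenobarbital, clofibrate, TCDD and troglitazone comparisons and in the 5 comparisons with most members called. Of a list it names at most 4 called members with the largest change, and 3 genes of likeness at a mean of at least 5 CPM. Sums and changes of other genes named beside these were chosen after their values were seen. Alternatives were DESeq2 1.42.0, RLE size factors, no filter on low counts, the RefSeq table, RIN as a covariate, 1 limma-trend fit of all animals and leaving out each animal in turn. Leaving out batch number 10, and vehicle animal 3 of the Han Wistar phenobarbital study, was chosen after seeing the data. Promoters are RefSeq's for GRCr8, matched by symbol for 8 of the 9 members. Tables and figures used Python 3.11.15 and pandas 2.3.3.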

Additional observations from a re-analysis of the deposited data

Results flagged for a closer look

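In 62 groups of 4 to 10 animals behind the named values, the gap between the most extreme animal and its nearest neighbour was compared with the group's range. In 5 groups, all of 4 vehicle animals, 1 animal stood apart, and chance flags about 1 in 20 groups. Nr1i2 of vehicle replicate 1 in the azithromycin study was lowest, at 186.7 CPM. Nr1i3 of vehicle replicate 4 in the fluoxetine study was highest, at 124.9 CPM, and that of vehicle replicate 4 in the naproxen study was lowest, at 90.33 CPM. Nr1h3 of vehicle replicate 2 in the clofibrate study was highest, at 114.4 CPM, and that of vehicle replicate 2 in the sudoxicam study was lowest, at 99.19 CPM. The treated animals of all 5 comparisons lay outside the range of their vehicle animals for the gene named. That was a condition for these pairs to be named, so it does not bear on the animals that stood apart.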

How the results depend on the processing

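Of 122 named results 60 were called, and 43 of these stayed called whichever single animal was left out. None of the 60 changed direction under any alternative, which does not cover the named results that were not called. RIN as a covariate lost 30 of the 60 calls, 1 limma-trend fit of all animals lost 17, use of RefSeq counts 5, no filter on low counts 3, and DESeq2 and RLE size factors 0. The cause of these changes and of those below was not tested.

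The settings also change how many of all genes are called. With telcagepant edgeR called 608 genes and DESeq2 2228, with phenobarbital in Han Wistar rats 0 and 647, and with ticlopidine 5997 and 5907. The share of all genes called under each setting is not given here, so the counts below cannot be read as particular to the members. With DESeq2 the number of comparisons called became 3 higher and 14 lower for Nr1i2, 6 higher and 25 lower for Nr1i3, 5 higher for Rxra, 18 lower for Esr1, 2 higher for Nr1h4 and 16 lower for Hnf4a. With RIN as a covariate it became 5 lower for Nr1i2, 1 higher and 6 lower for Nr1i3, 2 higher and 3 lower for Ppara, 0 higher and 4 lower for Rxra, and 1 higher for Esr1. The same setting gave 3 lower for Nr1h4, 1 higher and 3 lower for Nr1h3, 2 lower for Hnf4a and 1 higher for Nr5a2. In 1 limma-trend fit of all animals it became 0 higher for Nr1i3, 3 higher and 9 lower for Ppara, 1 higher and 3 lower for Rxra, 0 higher for Esr1, 1 higher for Nr1h4 and 12 lower for Hnf4a. Without a filter on low counts Nr1i3 was lower in 7. Without batch number 10, Rxra was higher in 1. Over all male vehicle groups the strain difference was 0.22 for Ppara and -0.10 for Hnf4a.

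For the next counts 1 animal, the one with a given replicate number in an arm, was left out of every comparison that had it. Many animals were thus left out together, and the ranges do not show what a single animal can shift. Calls higher and lower ranged from 0 to 2 and 7 to 9 for Nr1i2, 2 to 3 and 7 to 12 for Nr1i3, and 5 to 9 and 5 to 9 for Ppara. They ranged from 0 to 2 and 6 to 8 for Rxra, 2 to 3 and 6 to 11 for Esr1, and 0 to 1 and 6 to 9 for Nr1h4. They ranged from 2 to 2 and 6 to 7 for Nr1h3, 1 to 1 and 3 to 6 for Hnf4a, and 2 to 4 and 2 to 6 for Nr5a2. Where this left 1 animal in an arm, that animal was taken to vary like the other arm. No paired analysis was possible because animal numbers are unique to each animal and the replicate numbers only name animals in accession order. With 2 to 6 animals an arm, changes of a size seen here can miss the threshold, as Nr1i3 with lumiracoxib did.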

Other observations

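Almorexant livers were also sequenced under batch number 2, with 1 vehicle and 3 treated animals, and enter no test. Esr1 was at 13.0 CPM in the vehicle animal and at 1.35, 1.05 and 0.685 in the treated ones. Nr1h4 was at 61.0 against 25.3, 41.2 and 26.1 CPM, and Nr1i3 at 31.4 against 23.8, 24.2 and 20.6. Nr1i2 was at 228 against 81.9, 192 and 101 CPM, and Hnf4a at 828 against 446, 586 and 611.

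Some comparisons turned on 1 animal. Without treated replicate 1 of nabumetone the number of genes called went from 96 to 2922, and Nr1i3 (-0.92, adjusted p = 0.0196) and Esr1 (-1.62, adjusted p = 0.0124) were among them. Without treated replicate 1 of diphenhydramine, which leaves 1 treated animal, it went from 486 to 2710, with Nr1i3 at -3.13 (adjusted p = 0.00348) and Nr5a2 at 1.41. Without treated replicate 1 of propranolol it went from 284 to 1939, and without vehicle replicate 4 of cefuroxime from 1 to 240, and no member was called in either.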
